A study of Mus musculus with 3 samples.

Results

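The 10 genes described here form the core of the circadian clock and its bZIP outputs: Arntl, Clock, Per1, Per2, Per3, Cry1, Nr1d1, Nr1d2, Dbp and Nfil3. They were chosen by gene name in the array files, which gave 13 of 39429 probes, and all 13 passed the filter on dim probes that 27631 probes passed. The tissue was hippocampus of male mice killed at postnatal day 120, bred in 2 groups, either from older mothers (15 to 18 months at breeding) or from young mothers (3 months, the control), with fathers of 3 months in both. Each of 3 two-colour arrays compared 1 older-mother pool, labelled with Cy3, with 1 young-mother pool, labelled with Cy5, and each pool was RNA of 3 animals. No strain and no time of killing is given in the labels, so the position of any pool in the daily cycle is not known. Group and dye share the channel on all 3 arrays and cannot be told apart. The comparison asks whether clock transcripts differ with the age of the mother, and whether the arms of the clock differ in the same direction.

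In the clock of mammals, CLOCK and BMAL1, the product of Arntl, bind E-boxes as a pair and switch on the Per and Cry genes, Nr1d1, Nr1d2 and Dbp. PER and CRY proteins return to the nucleus and block that pair, while REV-ERB proteins, made from Nr1d1 and Nr1d2, repress Arntl and Nfil3 through ROR elements. DBP activates and NFIL3 represses genes through a shared element, the D-box. In rodent hippocampus many of the clock transcripts cycle over the day, while Per1 and Per2 also answer to glucocorticoids and to neuronal activity.

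In the older-mother pools Nr1d1 was 1.61-fold lower, Nfil3 1.58-fold higher, Per1 1.39-fold higher, Per2 1.35-fold higher and Clock 1.25-fold higher. Arntl, Per3, Cry1, Nr1d2 and the brighter probe of Dbp did not pass the test. Counted by the brightest probe of each gene, 4 of 10 clock genes were higher and 1 lower (limma, Benjamini-Hochberg adjusted p under 0.05 over all kept probes), where 7.34% of all 17965 genes measured were higher and 12.2% lower. The single lower gene is thus near the background share. The median log2 ratio of older over young was 0.08 over the 10 genes and -0.03 over all genes. The sign was the same on all 3 arrays for 7 of the 10, and for 60.6% of all genes. Without array 3, 0 of 10 clock genes passed in limma, with 4 higher and 1 lower at an unadjusted p under 0.05. Of all genes 26 were then higher and 0 lower after adjustment, with 2099 and 3515 at an unadjusted p under 0.05. Without array 2, Nfil3 and Nr1d1 passed and the others did not, where 219 of all genes were higher and 296 lower. With median centring, which takes 1 constant from each array and no curve against intensity, 3 were higher (Per3, Cry1 and Nfil3) and 4 lower (Arntl, Nr1d1, Nr1d2 and Dbp). That setting left a trend with brightness over all genes, and the share of all genes called under it is not given here. Per3, Cry1 and Arntl were then at 0.22, 0.42 and -0.46. Genes of like brightness had medians of 0.24, 0.33 and -0.56.

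Nr1d1 and Nfil3 had larger absolute log2 ratios than nearly all of the array: 0.935% of genes had one as large as Nr1d1 and 0.991% one as large as Nfil3. The shares were 2.48% for Per1, 3.27% for Per2 and 8.1% for Clock. At the other end, 85.5% of genes had a ratio as large as that of Per3.

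**Figure D1:**
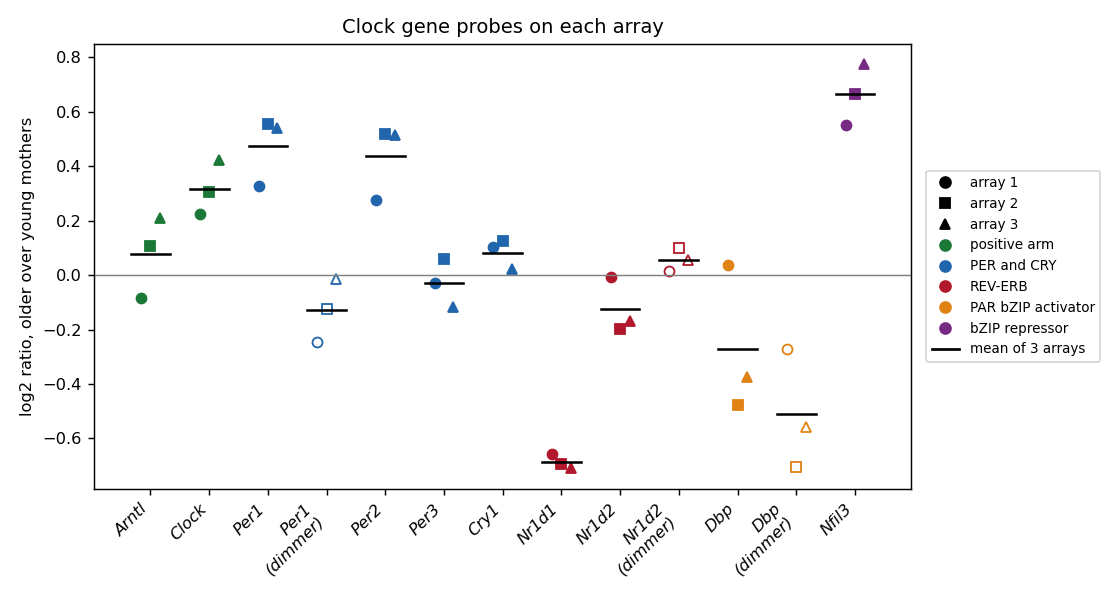
Log2 ratio of older over young mothers for the 13 clock probes on each of the 3 arrays, with a line at the mean. Symbols mark the arrays, colours the arm of the clock, and open symbols the dimmer of 2 probes of a gene. Nfil3 and Nr1d1 lie farthest from 0, on opposite sides, and the ratios of Per1, Per2 and the brighter Dbp probe on array 1 are nearer to 0 than or opposite to those on arrays 2 and 3. With median centring the mean ratios of Clock, Per1, Arntl and Per3 change sign.

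The Cy3 channel was the weaker of the dyes, with a median signal over local background of 58.0 to 62.3 intensity units for older-mother RNA, against 153 to 165 units for young-mother RNA in Cy5. Of spots that are not controls, 64.6% to 66.7% were well above background in Cy3 and 71.0% to 74.9% in Cy5, and 0 were saturated. The deposited log2 ratios correlated between arrays with r of 0.474 to 0.665. This was over all 43020 spots that are not controls, dim ones included, and these spots are not independent. All 8 markers of hippocampal neurons were above background in both dyes on every array, with a median log2 ratio of 0.03. Of 8 markers of the suprachiasmatic nucleus and hypothalamus, Six6 and Nms were not above background and 0 of the other 6 passed in limma, with 0 higher and 1 lower at an unadjusted p under 0.05. In whole tissue, fewer cells of a type and less RNA per cell cannot be told apart. Markers of 2 neighbouring tissues moved with the groups: 3 of 10 choroid plexus genes were lower in limma (all 10 at an unadjusted p under 0.05), 0 were higher at either threshold and the list median was -1.13 on the log2 scale. Their summed level ran from 9449 to 68870 in older-mother pools and from 79040 to 115800 in young-mother pools, and none of the 10 was below the filter. The array medians of that list were -0.88, -2.07 and -0.42 on arrays 1, 2 and 3. Of 8 leptomeningeal genes 5 were lower in limma and 0 higher, where 12.2% and 7.34% of all genes were, with array medians of -0.37, -0.51 and -0.32. Their summed level ran from 6316 to 9785 in older-mother pools and from 8184 to 10150 in young-mother pools, and all 8 were above background in both dyes on every array. The part of both lists in the clock results was not tested.

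Levels are given as log2 normalised intensity, in which both dyes were balanced within an array and the arrays set to a common brightness. Levels of different probes cannot be compared with each other. Probe positions are those of the array files, on build mm9; where in its transcript each probe lies was not annotated here.

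Clock and Arntl, the positive arm, did not have ratios of the same size. Clock (probe at chr5:76641377-76641436) encodes the bHLH-PAS partner of BMAL1. Its level was 9.07, 9.29 and 9.24 in the older-mother pools of arrays 1, 2 and 3, against 8.84, 8.98 and 8.82 in the young-mother pools. Every older-mother pool was above every young-mother pool, a separation upward that 16.7% of all genes showed, while 26% were separated downward. The log2 ratios were 0.22, 0.31 and 0.42, with a mean of 0.32 ± 0.10 (SD, n = 3) and a limma adjusted p of 0.0242; with median centring the mean was -0.11, which was 0.22 above the median of all probes.

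Arntl (chr7:120457261-120457320) encodes BMAL1. Its level was 10.02, 10.08 and 10.12 in older-mother pools, against 10.11, 9.97 and 9.91 in young-mother pools. The groups overlapped, because array 1 ran opposite to the others. The mean log2 ratio was 0.08 ± 0.15 (SD, n = 3; limma adjusted p 0.43), and on every array it was below that of Clock, by 0.31, 0.20 and 0.21. In the promoter windows of RefSeq (GRCm38.p6), which run from 250 bases before to 50 after a start, a ROR element core, TAGGTCA, lay just after the second Arntl start. It is shown because the REV-ERB proteins act on Arntl through such elements, with the core in capitals (chr7:113207530-113207559, plus strand):
Arntl, second start: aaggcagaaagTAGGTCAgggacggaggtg

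Per1 and Per2 differed by nearly the same amount, and Per3 and Cry1 did not pass. Per1 (chr11:68923364-68923423) encodes a PER repressor that is also an immediate response gene. Its level was 11.56, 11.75 and 11.76 in older-mother pools, against 11.24, 11.20 and 11.22 in young-mother pools. The 3 young-mother pools lay within a narrow range, and the older-mother pool of array 1 was the lowest of its group but still above them all. The log2 ratios of 0.33, 0.55 and 0.54 had a mean of 0.47 ± 0.13 (SD, n = 3; limma adjusted p 0.017), and a mean of -0.14 with median centring, which was 0.19 above the median of all probes.

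A second Per1 probe (chr11:68919895-68919954), which carries the accession of a cloned cDNA and not that of the reference transcript, ran the other way. Its level was 6.39, 6.48 and 6.57 in older-mother pools, against 6.64, 6.60 and 6.58 in young-mother pools. In Cy3 no array measured it well above background, so its ratio rests on a signal near background. The log2 ratios were -0.25, -0.13 and -0.01 on arrays 1, 2 and 3. Their mean was -0.13, or 1.09-fold lower in older-mother pools, which did not pass (limma adjusted p 0.167). Over both probes the average was 0.17, with an adjusted p of 0.0891.

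Per2 (chr1:93313046-93313105), the second PER repressor, had a level of 8.25, 8.69 and 8.70 in older-mother pools, against 7.97, 8.17 and 8.18 in young-mother pools. Array 1 was lower than the others in both groups, and no young-mother pool reached an older-mother pool. The log2 ratios were 0.28, 0.52 and 0.52, with a mean of 0.44 ± 0.14 (SD, n = 3; limma adjusted p 0.0195). Within an array, Per1 exceeded Per2 by only 0.03 to 0.05 on the log2 scale, a description of their ratios on 3 arrays with no test.

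Per3 (chr4:150379256-150379315), a PER protein that is largely dispensable for rhythm in mice, had a level of 6.73, 6.98 and 6.86 in older-mother pools, against 6.76, 6.92 and 6.97 in young-mother pools. The groups overlapped, and the mean log2 ratio was -0.03 ± 0.09 (SD, n = 3; limma adjusted p 0.711). Per2 was above Per3 by 0.30, 0.46 and 0.63 in log2 ratio on the 3 arrays. Cry1 (chr10:84594731-84594790), the strong repressor that closes the loop, had a level of 6.74, 6.80 and 6.81 in older-mother pools, against 6.64, 6.68 and 6.78 in young-mother pools. Its ratios were all positive and small, with a mean of 0.08 ± 0.05 (SD, n = 3; limma adjusted p 0.238). The value depended on the processing: it was 0.0082 when fitted on the deposited log2 ratios and 0.38 with Agilent's processed signals, neither of which passed, and it passed at 0.20 with no background correction (adjusted p 0.0329), at 0.11 with array weights (0.0387) and at 0.42 with median centring (0.000281). Both probes are dim, and the offset used in background correction pulls ratios of dim probes towards 0.

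The promoters of Per1, Per3 and Cry1 are shown because each held a match to an element through which the arms meet. Such elements are E-boxes (CACGTG), D-boxes (TTATGTAA or TTATGCAA) and the core of the cAMP response element (TGACGTC). Each stretch covers the 250 bases before a RefSeq start on GRCm38.p6, on the strand of the gene, with matches in capitals; it lies at chr11:69098699-69098948 and chr11:69099902-69100151 (plus strand) for the starts of Per1, at chr4:151044666-151044915 (minus) for Per3 and at chr10:85185055-85185304 (minus) for Cry1. Per2 had no window in the table.
Per1, upstream start: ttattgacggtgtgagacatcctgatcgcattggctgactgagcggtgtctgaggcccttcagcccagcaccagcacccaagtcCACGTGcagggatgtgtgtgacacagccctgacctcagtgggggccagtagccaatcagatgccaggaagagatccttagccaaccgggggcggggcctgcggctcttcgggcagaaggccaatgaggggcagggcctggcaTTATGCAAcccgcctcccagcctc
Per1, downstream start: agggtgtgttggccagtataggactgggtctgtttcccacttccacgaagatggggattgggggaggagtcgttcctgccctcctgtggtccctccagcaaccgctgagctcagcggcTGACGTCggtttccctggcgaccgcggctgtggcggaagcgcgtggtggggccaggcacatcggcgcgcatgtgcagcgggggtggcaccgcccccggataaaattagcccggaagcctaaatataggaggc
Per3: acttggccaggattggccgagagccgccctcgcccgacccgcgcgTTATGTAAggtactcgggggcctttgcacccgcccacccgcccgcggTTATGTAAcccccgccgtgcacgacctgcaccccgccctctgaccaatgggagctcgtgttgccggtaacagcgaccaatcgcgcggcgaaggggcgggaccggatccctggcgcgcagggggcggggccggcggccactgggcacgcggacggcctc
Cry1: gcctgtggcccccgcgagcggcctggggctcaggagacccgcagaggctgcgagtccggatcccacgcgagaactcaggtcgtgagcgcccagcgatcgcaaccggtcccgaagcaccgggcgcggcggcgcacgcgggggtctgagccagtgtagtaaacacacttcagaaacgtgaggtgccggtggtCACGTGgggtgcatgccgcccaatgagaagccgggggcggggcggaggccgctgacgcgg

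The upstream start of Per1 had an E-box 166 bases before it and a D-box of the TTATGCAA form 24 bases before it, and the downstream start had the cAMP element core 132 bases before it. Per3 had a pair of TTATGTAA D-boxes, 205 and 158 bases before its start, and Cry1 an E-box 60 bases before. Both strands were searched, and no matches overlapped. Of 32851 windows in the table, 7.15% held CACGTG, 0.938% TTATGTAA, 0.743% TTATGCAA, 3.21% TGACGTC and 2.61% TAGGTCA. Of the 13 clock gene windows, 2 held CACGTG, 2 TAGGTCA, 1 TTATGTAA, 1 TTATGCAA and 1 TGACGTC. The windows of Clock, Nr1d1, Nr1d2 and Dbp held none of these. Neither the inverted-repeat consensus of the glucocorticoid receptor, found in 0.00913% of windows, nor a heat shock element, found in 0.603%, was in any of the 13 windows of the 9 clock genes that had one. A match describes letters in a window and not a bound site.

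The REV-ERB genes split. Nr1d1 (chr11:98630526-98631028) encodes REV-ERB alpha, the heme-binding repressor of Arntl. Its level was 8.66, 8.51 and 8.42 in older-mother pools, against 9.31, 9.21 and 9.13 in young-mother pools. The lowest young-mother pool was well above the highest older-mother pool. The log2 ratios of -0.66, -0.69 and -0.71 had the narrowest spread among the 10 genes, with a mean of -0.69 ± 0.03 (SD, n = 3; limma adjusted p 0.0117). The call ended without array 3, at an adjusted p of 0.0515 and a ratio of -0.67.

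The single Nr1d1 probe is shown because its 60 bases are spread over 503 bases of the minus strand in the array file, so its letters are not contiguous in the genome:
Nr1d1 probe: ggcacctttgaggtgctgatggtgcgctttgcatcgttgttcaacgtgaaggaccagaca

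Nr1d2, which encodes REV-ERB beta, was measured by 2 probes that did not run the same way. The brighter (chr14:19036568-19036627) had a level of 10.94, 10.97 and 11.00 in older-mother pools, against 10.95, 11.17 and 11.17 in young-mother pools. The groups overlapped through array 1, and the mean log2 ratio was -0.13 ± 0.10 (SD, n = 3; limma adjusted p 0.158). The dimmer probe (chr14:19037253-19037312) had a mean of 0.06 ± 0.04 on the same scale (SD, n = 3; limma adjusted p 0.389). On every array the ratio of Nr1d1 was below that of the brighter Nr1d2 probe, by 0.65, 0.49 and 0.54.

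Of the outputs, Nfil3 rose, and Dbp passed the test with the dimmer of its 2 probes only. Nfil3 (chr13:53062578-53062637) encodes the bZIP repressor of D-boxes, also called E4BP4. Its level was 10.15, 10.17 and 10.23 in older-mother pools, against 9.60, 9.50 and 9.46 in young-mother pools. The gap between the groups was larger than the spread within either. The log2 ratios were 0.55, 0.67 and 0.77, with a mean of 0.66 ± 0.11 (SD, n = 3; limma adjusted p 0.0132); without array 3 the ratio was 0.61 at an adjusted p of 0.0515. The 250 bases before its start (chr13:52981040-52981289, minus strand, GRCm38.p6) hold the ROR element core on the opposite strand, 12 bases before the start, where it reads as the capitals below and is shown because Nfil3 is a known REV-ERB target:
Nfil3: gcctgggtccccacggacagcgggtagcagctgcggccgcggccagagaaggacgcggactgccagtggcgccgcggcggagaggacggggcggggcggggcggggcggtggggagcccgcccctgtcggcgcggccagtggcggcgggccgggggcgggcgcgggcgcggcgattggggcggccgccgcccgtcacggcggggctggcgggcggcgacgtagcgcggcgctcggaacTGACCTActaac

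Dbp encodes the PAR bZIP activator of D-boxes, a direct E-box target with a strong daily rhythm. Its brighter probe (chr7:52965461-52965520) had a level of 13.19, 13.03 and 13.21 in older-mother pools, against 13.15, 13.51 and 13.58 in young-mother pools. On array 1 the pools were nearly equal, and on arrays 2 and 3 the older-mother pool was lower. The log2 ratios of 0.04, -0.48 and -0.38 had a mean of -0.27 ± 0.27 (SD, n = 3; limma adjusted p 0.121). The ratio was -0.43 without array 1, at an adjusted p of 0.0331, against -0.17 without array 2.

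The dimmer Dbp probe (chr7:52965322-52965381) had a level of 12.63, 12.28 and 12.30 in older-mother pools, against 12.90, 12.98 and 12.86 in young-mother pools. Here no pools overlapped, and array 1 was again nearest to 0, with log2 ratios of -0.27, -0.71 and -0.56. The mean was -0.51 ± 0.22 (SD, n = 3), or 1.43-fold lower in older-mother pools, with a limma adjusted p of 0.0241, where 10.7% of all probes were lower. Averaged over the probes, Dbp had a log2 ratio of -0.39 and an adjusted p of 0.0452.

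**Figure D2:**
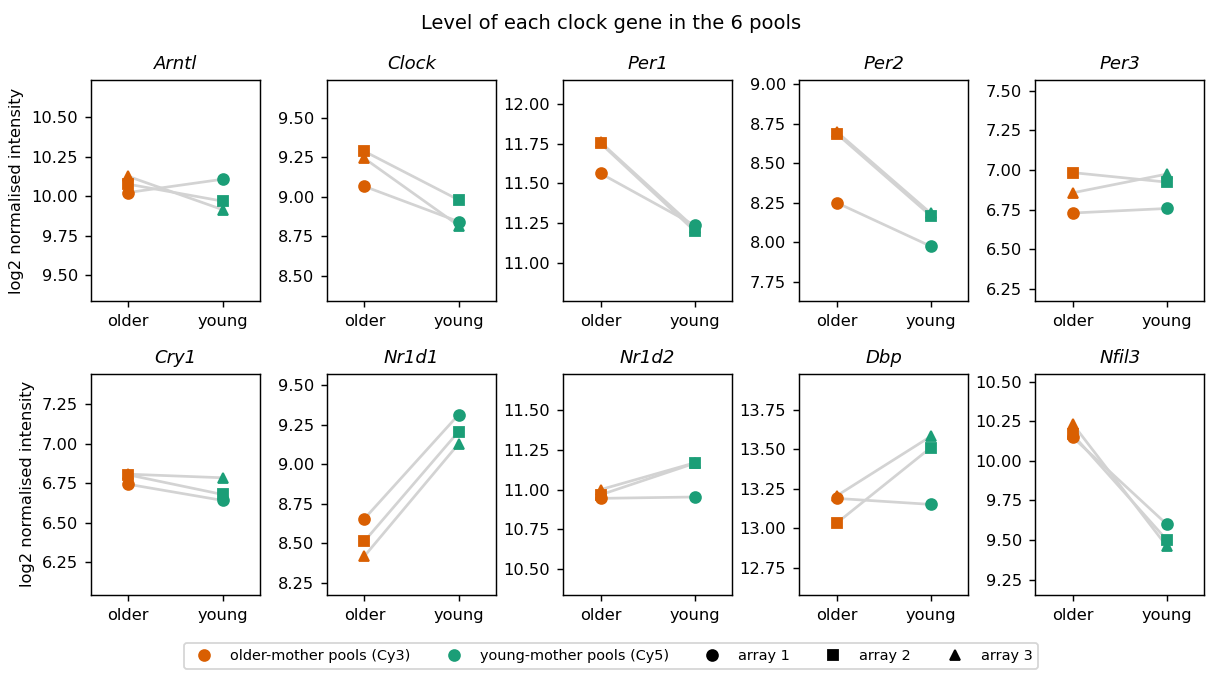
Level (log2 normalised intensity) of each clock gene in the 3 older-mother pools (left) and the 3 young-mother pools (right), by the brightest probe, with lines joining the pools of an array and every axis spanning the same range. Nr1d1 is lower and Clock, Per1, Per2 and Nfil3 are higher in all older-mother pools than in any young-mother pool; with median centring the ratios of Clock and Per1 change sign.

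The arms were set side by side within each array, as a description with no test, since the genes were chosen with results of these data known. The mean log2 ratio of Arntl and Clock was 0.07, 0.21 and 0.32 on arrays 1, 2 and 3 (0.20 ± 0.12, SD, n = 3). That of Per1, Per2, Per3 and Cry1 was 0.17, 0.31 and 0.24 (0.24 ± 0.07, SD, n = 3). The positive arm and the PER and CRY arm thus had mean ratios of one direction here, and with median centring opposite ones, at -0.29 and 0.16. The median-centred ratios hold a trend with brightness. Set against genes of like brightness in those data, Arntl was 0.10 and Clock 0.34 higher. Per1, Per2 and Cry1 were 0.49, 0.48 and 0.09 higher on that measure, and Per3 0.02 lower. Their difference with the curve removed changed sign between arrays, at 0.10, 0.11 and -0.08. The REV-ERB mean was -0.33, -0.45 and -0.44 (-0.41 ± 0.06, SD, n = 3), which was below the positive arm by 0.40, 0.65 and 0.76. Genes within these arms differed in size: Nr1d1 was at -0.69 and the brighter Nr1d2 probe at -0.13, Clock at 0.32 and Arntl at 0.08. With median centring the REV-ERB mean was 0.62 below the positive arm.

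The genes that CLOCK and BMAL1 drive through E-boxes did not share a direction, with Per1 above Nr1d1 by 0.99, 1.25 and 1.25 in log2 ratio on the 3 arrays. Nr1d1 was below its target Arntl by 0.57, 0.80 and 0.92. The opposed bZIP outputs differed on each array as well: the ratio of Dbp was below that of Nfil3 by 0.51, 1.14 and 1.15, a mean of -0.94 ± 0.37 (SD, n = 3). Without array 1 that mean was -1.15, and -0.83 without array 2 or array 3. The mean ratios of Dbp and Nfil3 had opposite signs, though both were above 0 on array 1, so their mean of 0.20 describes neither. In mouse tissues with a running clock, Nr1d1, Dbp, Per1, Per2 and Arntl peak at different times of day, and 1 collection point with no stated hour gives no phase.

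The way the dyes were balanced set the sign of some ratios. Median centring of each array, in place of the intensity-dependent curve, moved the median of all probes to -0.33 and left a trend with brightness, from 0.34 for genes below a mean log2 intensity of 7 to -0.77 above 13. Set against genes of like brightness in median-centred data, Per1 was 0.49 higher, Per2 0.48 higher, Clock 0.34 higher, Nfil3 0.68 higher and Nr1d1 0.65 lower. Dbp was 0.27 lower on that measure, Nr1d2 0.11 lower and Per3 0.02 lower, while Arntl was 0.10 and Cry1 0.09 higher. This measure removes the trend with brightness, as the loess curve does, so it is no independent check of the ratios reported.

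**Figure D3:**
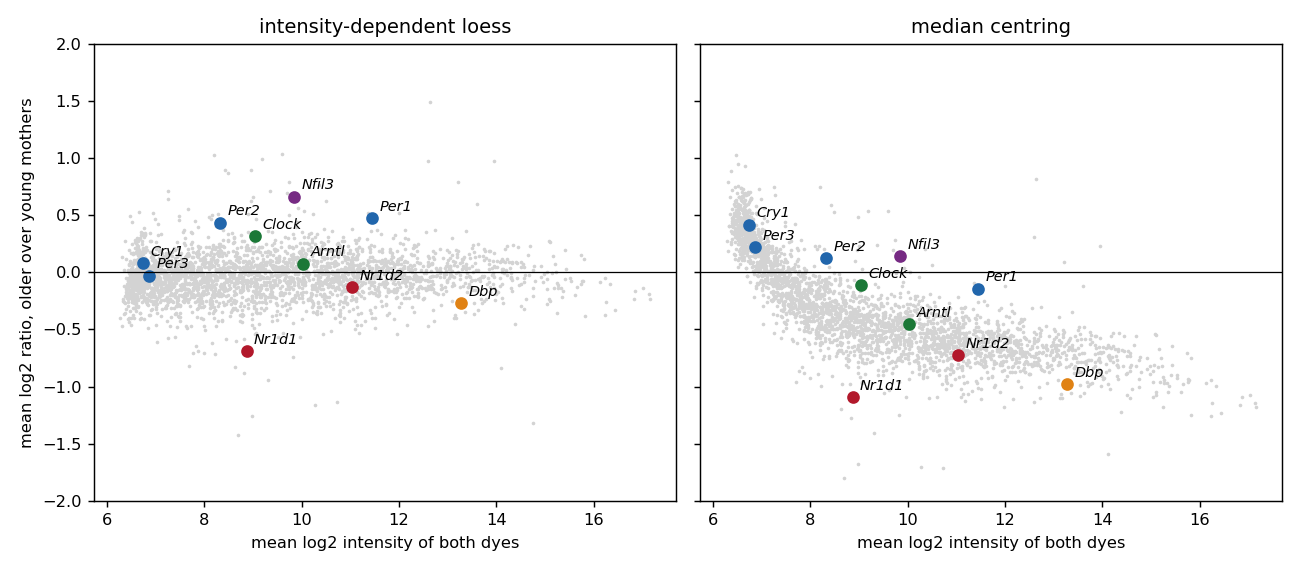
Mean log2 ratio of older over young mothers against mean log2 intensity of both dyes for 3000 genes drawn at random (grey) and the 10 clock genes (coloured by arm), with the intensity-dependent loess curve removed (left) and with median centring only (right). With median centring dim genes lie above 0 and bright genes below it, and Per1, Clock and Arntl lie below 0 while Per1 and Clock stay above the genes of their brightness.

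Of 34 other genes of the clock, all measured, 2 were higher and 3 lower in older-mother pools and 29 did not pass (limma), with a median log2 ratio of 0.03. Both shares are near those of all genes, 7.34% and 12.2%. Without array 2, and without array 3, 0 of the 34 passed in limma. At an unadjusted p under 0.05, 4 were higher and 6 lower without array 2, where 1604 and 2647 of all 17965 genes were. Without array 3, 3 were higher and 6 lower at that threshold, where 2099 and 3515 of all genes were.

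Among 13 core and stabilising genes, only Hlf passed, the gene of a PAR bZIP activator related to Dbp. Hlf had log2 ratios of 0.28, 0.38 and 0.21, a mean of 0.29 ± 0.08 (SD, n = 3; limma adjusted p 0.0247), which turned to -0.32 with median centring; it passed in none of the fits that left out an array. The third PAR bZIP gene, Tef, had a ratio of 0.14 ± 0.14 (SD, n = 3; adjusted p 0.181). The mean ratios of Hlf and Tef thus lay above 0 and those of both Dbp probes below it, while with median centring Hlf, Tef (-0.65) and the brighter Dbp probe (-0.98) were all below 0. In those data the median of genes at a mean log2 intensity of 11 to 12, where Hlf lies, was -0.63. Above 13, where Tef and the brighter Dbp probe lie, the median was -0.77. Cry2, the partner of Cry1, had -0.01 ± 0.08, and Npas2, a CLOCK paralogue of forebrain, had -0.19 ± 0.13 (SD, n = 3 each; limma adjusted p 0.905 and 0.0884).

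Bhlhe40, a repressor at E-boxes that also responds to activity, had log2 ratios of -0.03, 0.41 and 0.25 (mean 0.21 ± 0.22, SD, n = 3; limma adjusted p 0.152). Ciart, a repressor of the CLOCK pair also called CHRONO, had -0.05, -0.36 and -0.30 (mean -0.24 ± 0.16, SD, n = 3; adjusted p 0.0691). In both, as in the brighter Dbp probe, array 1 was near 0 and arrays 2 and 3 were not. The dimmer Dbp probe was at -0.27 on array 1. Bhlhe41 had -0.16 with its brighter probe and 0.21 with its dimmer one, neither of which passed in limma (adjusted p 0.109 and 0.0749).

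Among 11 genes of clock protein turnover, the 2 that passed were lower. Btrc encodes the F-box protein that marks phosphorylated PER for degradation, and had log2 ratios of -0.33, -0.26 and -0.34 (mean -0.31 ± 0.04, SD, n = 3; limma adjusted p 0.0188), with a like mean of -0.35 from its dimmer probe. Csnk1d, the casein kinase 1 delta that phosphorylates PER, had a mean of -0.24 ± 0.08 (SD, n = 3; adjusted p 0.0345), which did not pass when its probes were averaged (-0.16, adjusted p 0.0599). Among 10 further rhythmic output genes, Lonrf3 was higher, at 0.34 ± 0.05, and Tspan4 lower, at -0.42 ± 0.11 (SD, n = 3 each; limma adjusted p 0.0178 each); Lonrf3 turned to -0.26 with median centring. Avp, which is rhythmic in the suprachiasmatic nucleus, varied most, with log2 ratios of 1.05, -0.27 and 0.24.

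**Figure D4:**
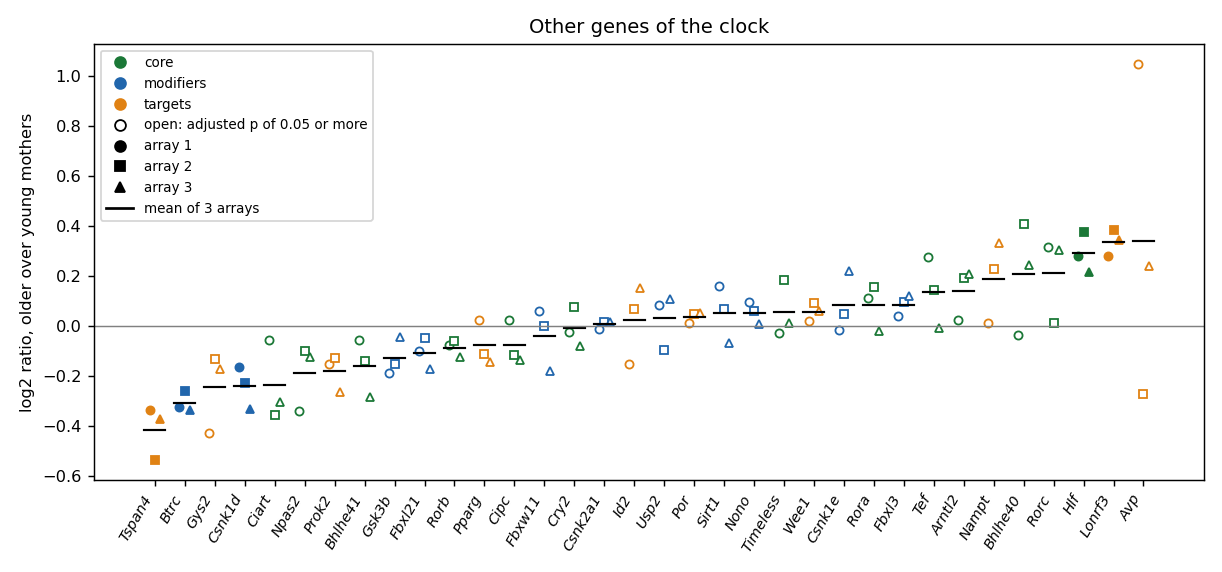
Log2 ratio of older over young mothers for 34 other clock genes on each array, ordered by mean, with symbols for the arrays, colours for the 3 lists and filled symbols for genes with a limma adjusted p under 0.05. Hlf and Lonrf3 are higher and Btrc, Csnk1d and Tspan4 lower; with median centring Hlf and Lonrf3 change sign.

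Genes that respond to glucocorticoids, neuronal activity or temperature, with the receptors and factors of some of these responses, are given beside the clock as counts, where 7.34% of all genes were higher and 12.2% lower. Of 12 genes of glucocorticoid action, 10 were higher and 0 lower (median log2 ratio 0.65); the 2 that did not pass were the receptors themselves, Nr3c1 and Nr3c2. Of 12 genes induced by activity through CREB, 10 were higher and 0 lower (median 0.74). Both lists were chosen with results of these data known, and without array 3 the counts were 3 and 5 higher, where 26 of all 17965 genes were. With median centring 5 of the glucocorticoid genes were higher and 1 lower, and the share of all genes called under that setting is not given here. Of 8 genes that respond to temperature, 5 heat-induced genes were higher and both cold-induced RNA-binding genes, Cirbp and Rbm3, were lower. The dimmer probes of Rbm3 had log2 ratios of -0.22 and -0.10 and did not pass (limma adjusted p 0.0904 and 0.2025). Counts of the temperature list without array 3 were 3 higher and 0 lower.

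Cirbp binds clock transcripts, Clock among them, and is needed for their full amplitude in cultured mouse cells. It had a level of 12.11, 11.90 and 11.91 in older-mother pools, against 12.66, 12.48 and 12.46 in young-mother pools. No pools overlapped, and the log2 ratios of -0.55, -0.57 and -0.55 (mean -0.56 ± 0.01, SD, n = 3; limma adjusted p 0.0124) ran opposite to the ratio of Clock on every array. With median centring Cirbp and Clock were both below 0, at -1.21 and -0.11. Genes at a mean log2 intensity of 12 to 13, as Cirbp, and 9 to 10, as Clock, then had medians of -0.67 and -0.50.

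The genes with array patterns most like Per1 and Dbp were found by Euclidean distance between the 3 log2 ratios, among 15409 named genes outside the lists. Closest to Per1 were Aff1 (0.32, 0.54 and 0.54), Ifrd1 (0.33, 0.51 and 0.54) and F3 (0.29, 0.50 and 0.52), at distances of 0.0202, 0.0497 and 0.0755. Closest to Dbp were Kazald1 (-0.01, -0.47 and -0.37), Cep250 (0.06, -0.44 and -0.35) and Ss18l2 (0.03, -0.43 and -0.35), at 0.0473, 0.0505 and 0.0551. With 3 arrays, 8 genes lay within 0.1 of Per1 and 10 within 0.1 of Dbp.

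**Figure D5:**
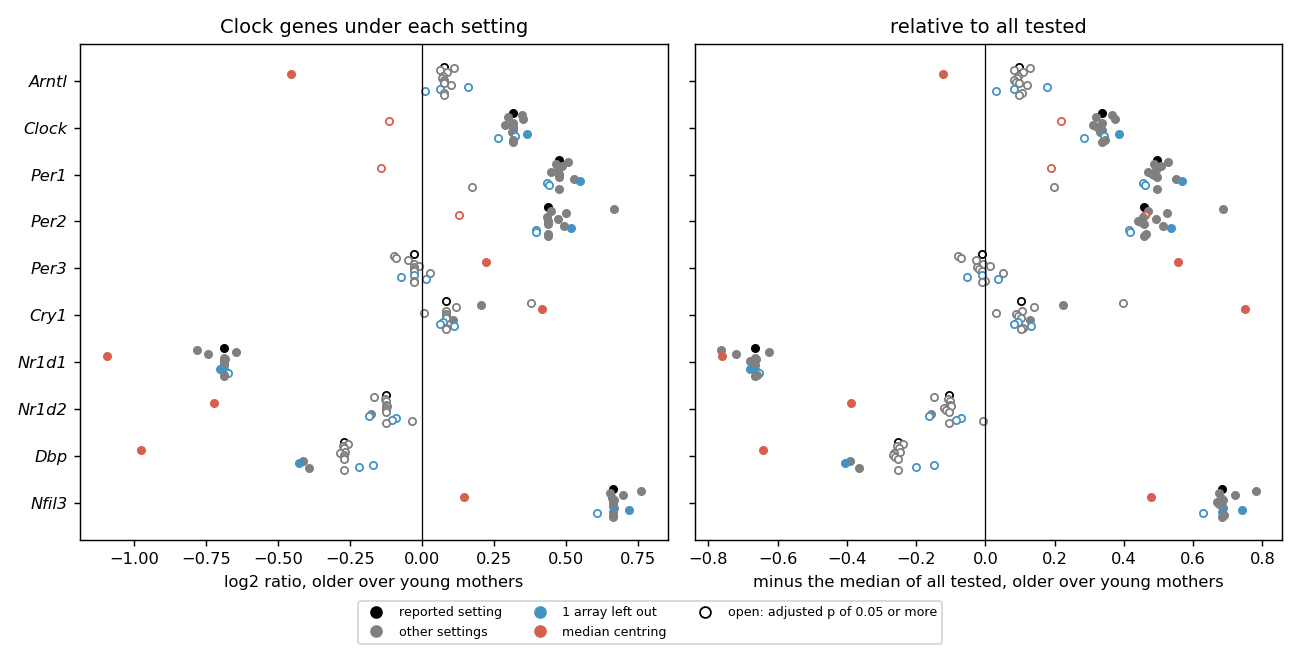
Log2 ratio of older over young mothers for the 10 clock genes under the reported processing and each alternative, as computed (left) and minus the median of all tested probes or genes (right), with filled points for a limma adjusted p under 0.05. Nr1d1 is below 0 and Nfil3 and Per2 above it under every setting shown, while Clock, Per1 and Arntl fall below 0 with median centring and Per3 changes sign in 3 settings.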

How the data were processed

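Total RNA of hippocampus was measured on 3 two-colour Agilent arrays with 60-base probes. Per the file headers, Agilent Feature Extraction 10.10.1.1 gave mean spot signals and median local backgrounds as raw intensity values, processed signals as intensity values corrected for background and dye, and a log10 ratio of Cy5 over Cy3. Per the file headers, the other columns used are quality flags coded as 0 or 1. Values in the deposited table are log2 ratios, Cy3 over Cy5; its centring is not stated, its column medians are -0.00539, -0.00509 and -0.00557, and normexp and loess on the median signals gave it back within 5e-10. For the clock probes it differed from the values used here by at most 0.138.

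From the mean signals, limma 3.58.1 in R 4.3.3 (jsonlite 2.0.0 for sample links, Python 3.11.15 for promoters and figures) applied normexp with an offset of 50 and loess with a span of 0.3 within arrays, with weight 0 for control and flagged spots. Spots of a probe were averaged. Probes had to be well above background on all 3 arrays in at least 1 dye; 11797 were not and 1 had no usable spot on an array. The log2 ratio was tested against 0 (lmFit, then eBayes with 2 residual and 3.42 prior degrees of freedom, two-sided), with p adjusted by Benjamini-Hochberg over kept probes. Pool levels came from the same values after Aquantile. The arrays shared 1 slide and 1 scan, so no batch term was possible. The number of arrays limits the precision, and whether pools shared litters is not given in the labels.

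Gene symbols were those of the files, or of RefSeq for 28025 matched probes (GRCm38.p6, which updated 1651 symbols); 5670 probes had no name. Probe coordinates are on mm9, per the file headers, and promoters on GRCm38.p6. Clock genes, lists and tests were chosen with earlier results of these data known. The rule for named genes took all 10 clock genes, at most 12 other clock genes with the smallest p plus Cry2, Npas2, Tef, Hlf, Bhlhe40, Bhlhe41 and Ciart, at most 4 of each input list, and the 3 genes nearest to Per1 and to Dbp; Avp, Rbm3, Nr3c1 and Nr3c2 were named after their values were seen. Of the other marker lists, where 7.34% of all genes were higher and 12.2% lower, 2 of 6 astrocyte genes were higher and 0 lower, and of 8 hippocampal neuron genes 2 were higher and 1 lower. Of 6 blood genes 3 were higher, the neutrophil genes S100a8, S100a9 and Camp, and the red cell genes Hbb-bt, Hba-a1 and Alas2 did not pass; these were named after their values were seen. Alternatives were the deposited table, processed signals, uncorrected signals, a normexp offset of 16, centring on the median, scaled arrays, 2 other filters, eBayes with trend and robust options, weighted arrays, a mean over the probes of a gene, separate channels and each array left out; the dimmer probes, and the counts of the input lists under each alternative, were added after seeing the data. The steps were tested on simulated data.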

Additional observations from a re-analysis of the deposited data

How the results depend on the processing

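Nr1d1, Nfil3 and Per2 kept their direction under all 15 alternatives run for them, with log2 ratios of -1.09 to -0.65, 0.14 to 0.76 and 0.13 to 0.67. The pools of an array are paired by hybridisation. With separate channels and no replicate block, 4 clock genes were higher and 1 lower, as with the pairing, and 5 other clock genes were lower in place of 3. The share of all genes called with separate channels is not given here. Over the 3 fits that left out an array, the count of clock genes ran from 0 to 4 higher and from 0 to 2 lower, and that of other clock genes from 0 to 3 higher and from 0 to 4 lower. Of all 17965 genes, 26 to 897 were higher and 0 to 1412 lower in these fits. Clock, Per1 and Per2 lost their calls without array 2 (adjusted p 0.0899, 0.0503 and 0.0658) and without array 3 (0.0719, 0.0599 and 0.0643), and Nr1d1 and Nfil3 without array 3 (0.0515 each); fewer arrays leave fewer degrees of freedom.

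With median centring 4 clock genes were lower and 3 higher, namely Per3, Cry1 and Nfil3, and of other clock genes 4 were higher and 27 lower. The median of all probes was then below 0 as well. Ratios that changed sign there were Arntl at -0.46, Clock at -0.11, Per1 at -0.14, Per3 at 0.22, Hlf at -0.32, Lonrf3 at -0.26, Bhlhe40 at -0.33, Bhlhe41 at 0.0030, Npas2 at 0.16, Tef at -0.65, F3 at -0.17 and Ifrd1 at -0.15. So did the mean of Dbp and Nfil3, at -0.42, and that of the positive arm, at -0.29, and the PER and CRY arm was 0.44 above the positive arm. All of these ratios hold the trend with brightness that median centring leaves. Array weights gave 3 clock genes lower and, of the others, 8 higher and 8 lower, with Per3 at 0.030 and Cry2 at 0.047. The mean over probes gave 2 clock genes lower, Bhlhe41 at 0.026 and Cry2 at 0.042. Agilent's processed signals gave 1 other clock gene higher and Cry2 at 0.025. No background correction gave 6 others lower. The shares of all genes called under these settings are not given here, so the counts are not read as particular to clock genes. Over the fits that left out an array, Per3 ran from -0.074 to 0.016 and Cry2 from -0.052 to 0.026, both positive without array 3. The dimmer probes turned Per1 to -0.13 and Nr1d2 to 0.057. The cause of these changes was not tested. Signal over background limits Per3, Cry1 and the second Per1 probe, the dimmest here.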
